A study of Mus musculus with 17 samples.

Results

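A set of 244 probe sets read at least 4-fold higher in IgM+CD138+ spleen cells than in the other sorted B-lineage cells of the same study. Stretches of the array list rich in immunoglobulin probe sets were left out, but not every place near an immunoglobulin name was. The members were chosen from these measurements, as every row with values in all 17 arrays whose mean log2 value over the 6 IgM+CD138+ arrays exceeded the mean over the 11 other arrays by at least 2. Listed rows 12601 to 12800, 30201 to 30300 and 31101 to 31200 were left out. The 244 are 0.732% of the 33327 rows that hold values. In all, 423 rows passed the threshold, and 179 of them lay in the left-out stretches.

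The cells were sorted from the spleens of mice lacking the LDL receptor (LDL-R KO, an atherosclerosis-prone strain), all of which were fed 12 weeks on a diet high in cholesterol. Control mice carried the LDL-R KO alone, and the others carried c-myb h/h in addition, which the series title describes as a deficiency of Myb, which controls transcription in developing blood cells. Each genotype supplied IgM+CD138+ cells, whose CD138 is carried by antibody-secreting cells. It also supplied B220+CD23+ cells, CD23 being typical of follicular B cells, as well as IgM-bearing B220+ cells without CD23 (B220+CD23-IgM+). The 6 groups had 3 arrays each, save that only 2 came from control B220+CD23-IgM+ cells. The sources used here do not give age, sex, strain background or the purity of the sorts, and they do not say outright that arrays of a genotype with the same number came from the same mouse. In bulk samples such as these, fewer cells of a type and less RNA per cell cannot be told apart.

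When a B cell becomes an antibody-secreting cell it stops serving as a responder to antigen and turns into a factory for secreted antibody. Its endoplasmic reticulum expands, and chaperones, disulfide isomerases, the translocation channel and the coats of transport vesicles are made in quantity under the control of factors such as Blimp-1 and XBP1, the latter being a central factor of the unfolded protein response. Marginal zone and B1 cells, which carry IgM and little CD23, are known to turn into antibody-secreting cells faster than follicular B cells.

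In the deposited table the values stand earlier in the list than the probe IDs they belong to, by an amount that grows along the list. Probe sets of gene families bright in nearly every cell (361) read 0.14 log2 below those of families silent outside their tissue (1751) with the names as listed, the signed difference being -0.14. With a displacement growing evenly to 370 rows at the end of the list the bright families read 2.03 log2 above the silent ones, and no displacement more than 100 rows from that gave over 0.52. Members are therefore given by their row number in the list, and no member is given a gene name. The median of an array lay between 5.13 and 5.21 log2, so the arrays were on a like scale.

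The members were bright in IgM+CD138+ cells and spanned a wide range of levels in the other cells. Over the 244, the median of the group means was 8.81 log2 in IgM+CD138+ cells (quartiles 7.82 and 10.13), 5.80 for B220+CD23+ and 6.12 for B220+CD23-IgM+ cells, whereas the medians over all valued rows were 5.15, 5.19 and 5.15. These values chose the members and are given as a description. The difference that chose them had a median of 2.54 log2, or 5.80-fold. It reached 8-fold in 66 members, 16-fold in 23 and 32-fold in 2. For 240 members the lowest of the 6 IgM+CD138+ arrays stood above the highest of the 11 others, and the 4 with overlap were rows 11684, 16341, 33152 and 34993.

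Some members were dim outside IgM+CD138+ cells, and more were already bright there. In 130 members all 11 other arrays already read above the median of their array, and here the median level was 7.08 log2 in the other cells and 9.79 in IgM+CD138+ cells. In 31 members all 11 other arrays read under the median of their array, with median levels of 4.26 and 6.70. The remaining 83 were mixed. In the IgM+CD138+ cells themselves 239 of the 244 read above the median of the array in all 6 arrays.

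The means over the members in single arrays show the level behind these values, and their distance between IgM+CD138+ and the other arrays follows from the choice of members. The mean over the 244 was 9.04, 8.90 and 8.85 log2 in the control IgM+CD138+ arrays and 9.02, 8.96 and 8.95 in the c-myb h/h ones. It was 6.07, 5.97 and 5.98 in control B220+CD23+ arrays and 6.12, 6.07 and 5.99 in c-myb h/h ones. In B220+CD23-IgM+ cells it was 6.22 and 6.25 in control and 6.43, 6.41 and 6.26 in the c-myb h/h arrays. All 5 B220+CD23-IgM+ arrays thus stood above all 6 B220+CD23+ arrays, an order that the choice did not set.

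**Figure D1:**
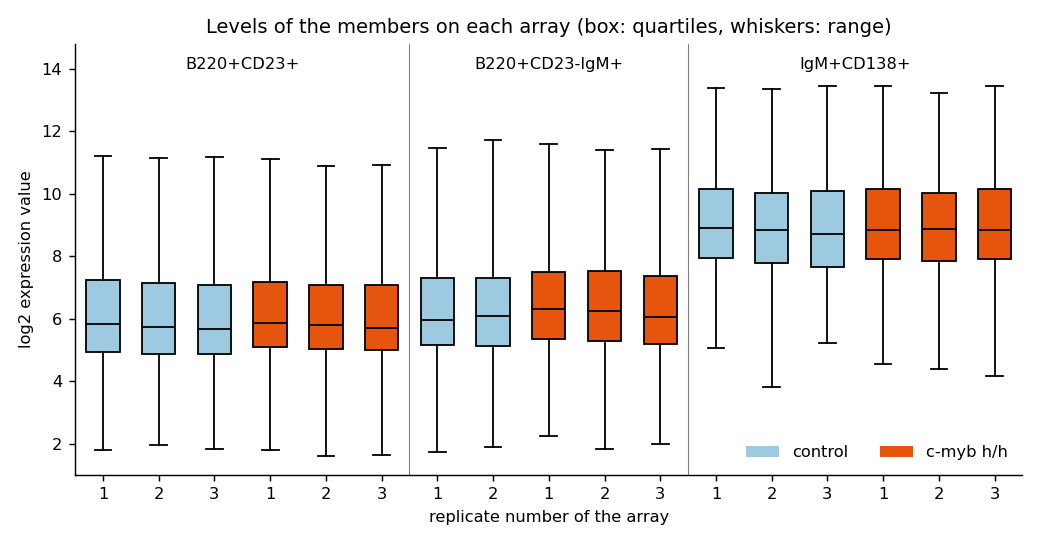
Log2 level of the 244 members (vertical axis) in each of the 17 arrays, grouped by cell type and genotype. Each box is 1 array and shows the quartiles, with whiskers over the range of the members. The means over members, not drawn, lie between 8.85 and 9.04 in the 6 IgM+CD138+ arrays. They lie between 5.97 and 6.12 in the 6 B220+CD23+ arrays and between 6.22 and 6.43 in the 5 B220+CD23-IgM+ arrays.

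The largest step belonged to row 21843, which was 5.996 log2 (63.8-fold) higher in IgM+CD138+ cells. It read 11.25, 11.69 and 11.70 log2 in control and 11.85, 11.84 and 12.01 in the c-myb h/h IgM+CD138+ arrays. In B220+CD23+ cells it read 5.68, 4.85 and 4.70 in control and 6.78, 5.53 and 5.56 in the c-myb h/h arrays, and in B220+CD23-IgM+ cells 5.21 and 5.19 against 7.69, 5.78 and 6.05. Replicate 1 of each c-myb h/h group outside IgM+CD138+ was the highest of its group for this row. The genotypes overlapped in B220+CD23+ cells and did not in B220+CD23-IgM+ cells, where the difference of 1.31 log2 (SE 0.47) did not pass the test described further on (limma adjusted p = 0.414).

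Row 29168 came next, at 5.62 log2 (49.2-fold). Its IgM+CD138+ arrays lay close together, at 12.59, 12.78 and 12.87 log2 in control and 12.73, 12.85 and 12.84 in the c-myb h/h mice. The other arrays were spread out, at 6.97, 4.85 and 6.23 in control and 7.55, 7.23 and 7.52 in the c-myb h/h B220+CD23+ cells, and at 6.17 and 7.34 in control and 8.21, 8.04 and 8.59 in the c-myb h/h B220+CD23-IgM+ cells. Every c-myb h/h array outside IgM+CD138+ stood above every control array of its cell type for this row, by 1.41 log2 (SE 0.39, limma adjusted p = 0.285) and 1.52 log2 (SE 0.44, limma adjusted p = 0.234) on average. Neither difference passed after Benjamini-Hochberg adjustment. The next 8 members by this measure, rows 21964, 37458, 20861, 16768, 37878, 30991, 11512 and 11359, stood 4.90 to 4.56 log2 higher in IgM+CD138+ cells.

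At the threshold the members run on without a gap into rows that were not chosen. The 3 members just inside, rows 10492, 15009 and 29935, all stood at 2.01 log2. Just outside stood row 17392 at 1.9956 and rows 27198 and 29577 at 1.99 each.

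The label of the cells was checked against lists of genes known for antibody secretion, as far as the displaced list allows, since the markers of the sort could not be read singly. The even displacement places each listed name only roughly, so for each list the share of its probe sets with a member within 20 rows of the displaced place was counted. Of 21 probe sets of antibody-secreting cell genes 13 (61.9%) had a member that close, and of 67 probe sets of secretory pathway and unfolded protein response genes 34 (50.7%), beside 24.3% of all 23365 annotated probe sets. With the names left as listed the shares were 23.8%, 23.9% and 24.1%. The lists have 6 genes in common, and the width of 20 rows was chosen with the data in view. At 10 rows the shares were 42.9% and 29.9% beside 13.1%, and at 40 rows 85.7% and 70.1% beside 42.3%.

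Lists of other cell types hold few probe sets, and some of their shares were not far below those of the secretory lists. Of 12 probe sets of B cell genes 5 (41.7%) had a member within 20 rows of their displaced place. The counts were 2 of 4 probe sets (50%) for T cell genes and 4 of 9 probe sets (44.4%) for myeloid genes. They were 1 of 9 probe sets (11.1%) for marginal zone or B1 genes and 0 of 2 probe sets for erythroid or megakaryocyte genes. The lists therefore do not settle the label of the cells. Of 30 cell cycle probe sets 9 (30.0%) had a member that close. These are counts of places along the list, not of genes found among the members, and nothing was tested on them.

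Nearly all high rows of the left-out stretches did lie near immunoglobulin names. Of the 179 left-out high rows 168 (93.9%) lay within 20 rows of the displaced place of 1 of 30 immunoglobulin probe sets, against 3 of the 244 members (1.23%) and 1.2% of all valued rows. The share of all valued rows includes the left-out stretches, where no member could lie, so it is no like-for-like base for the members. The share among valued rows outside these stretches was not computed. In the left-out stretches 179 of 374 valued rows (47.9%) passed the threshold.

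Members stood on average a little higher in B220+CD23-IgM+ than in B220+CD23+ cells, in both genotypes. This comparison is not the difference that chose the members, in which arrays of both cell types counted alike on the low side. It draws on the same 11 arrays, so it is free of the choice only where their spreads are equal and unrelated. The median over the 244 was 0.16 log2 for control mice and 0.24 log2 for c-myb h/h mice, beside -0.01 and -0.004 over all tested rows. The mean of the B220+CD23-IgM+ arrays was the higher in 176 members (72.1%) in control mice, against 43.9% of all valued and 47.7% of tested rows. It was the higher in 194 (79.5%) in c-myb h/h mice, against 46.5% of valued and 49.3% of tested rows. In 156 members (63.9%) it was higher in both genotypes, against 24.9% of valued rows, in 30 lower in both, and in 58 the sign differed between genotypes. That IgM+CD138+ cells stood above both was set by the choice of members.

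Limma was fitted to all 17 arrays with a mean for each group, and Benjamini-Hochberg adjusted p-values were taken over the 19350 rows that exceeded the median of their array in at least 2 arrays. The filter kept 243 members and dropped row 31003, and members could pass it through the IgM+CD138+ arrays alone. In control mice 21 members passed at an adjusted p under 0.05, 8.64% of the members tested beside a background of 1.52% of all rows tested. Of these 19 were higher in B220+CD23-IgM+ cells, where the background is 1.18%, and 2 were lower. In c-myb h/h mice 37 passed, 15.2% beside a background of 2.94%. All 37 were higher, where the background is 2.03%. With the filter set on the 11 arrays of the B cell populations alone, 39 members dropped out, and 22 of the 205 tested passed in control mice (10.7%, background 1.66%) and 36 in c-myb h/h mice (17.6%, background 3.29%). Of the rows tested in the fit of 19350 that are no members, 209 were higher and 64 lower in control mice, and 356 and 176 in c-myb h/h mice.

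The calls of the 2 genotypes, which come from different mice but share the spread of each row in the fit, had 16 members in common. These are 76.2% of the control list and 43.2% of the c-myb h/h list, and all 16 went the same way. Over all tested rows 196 passed in both with the same direction, 66.7% of the control calls and 34.4% of the c-myb h/h calls, so the overlap of the members was near that of any called row. A further 5 passed in control mice alone and 21 in c-myb h/h mice alone, and no test found the step itself to differ between genotypes (0 of the 243 with limma, 14 at an unadjusted p under 0.05). The arrays separated fully for a larger number of members. In control mice both B220+CD23-IgM+ arrays stood above all 3 B220+CD23+ arrays for 80 members (32.8%, background 14.3%), and in c-myb h/h mice all 3 above all 3 for 87 (35.7%, background 13.6%). All 5 stood above all 6 for 34 members (13.9%, background 3.49%).

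The counts rest on few arrays, over all rows as over members. Without control B220+CD23+ replicate 2 or replicate 3 the control count was 7 either way (0.571% and 0.555% of all rows passing), and without control B220+CD23-IgM+ replicates 1 and 2 it was 10 and 8 (0.409% and 0.876%). It was 10 with only the compared groups in the fit (0.873% of all rows), and 4 with arrays of the same number paired as 1 mouse (0.31%). The c-myb h/h count was 34 with that pairing (2.22%). It was 18 when c-myb h/h B220+CD23+ replicate 3 was left out (1.44%), 21 without replicate 2 (1.42%), and 23 without B220+CD23-IgM+ replicate 1 (1.9%) or 2 (1.91%) of that genotype.

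**Figure D2:**
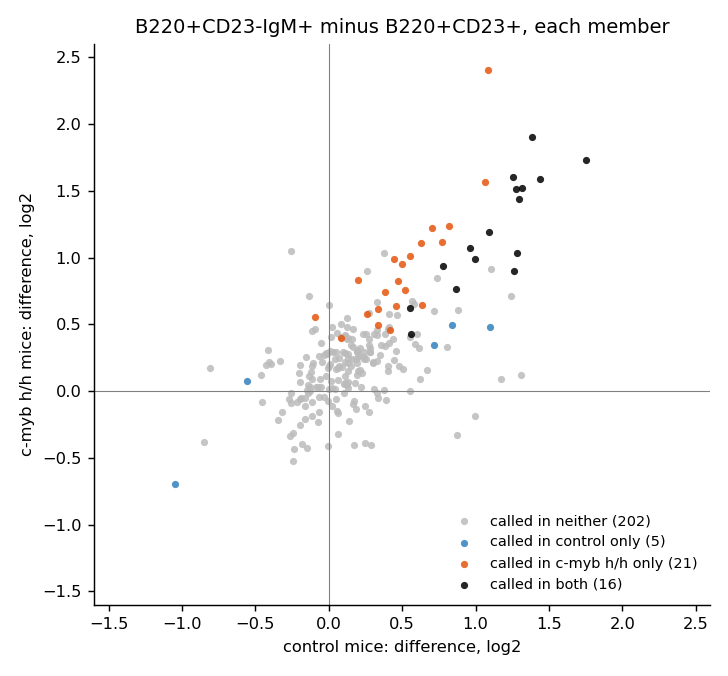
Difference between B220+CD23-IgM+ and B220+CD23+ cells in log2 for each member, control mice on the horizontal and c-myb h/h mice on the vertical axis; colours show members that passed limma's test in both, in 1 or in neither genotype. Most points lie above 0 on both axes, and the 16 that passed in both are all in the upper right.

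The clearest step between the B cell populations was that of row 36672. It read 4.81, 5.13 and 4.74 log2 in control and 5.45, 5.28 and 5.32 in the c-myb h/h B220+CD23+ arrays, then 6.67 and 6.62 in control and 7.05, 7.29 and 6.91 in the c-myb h/h B220+CD23-IgM+ arrays. In IgM+CD138+ cells it read 9.23, 8.90 and 8.74 in control and 9.29, 9.08 and 9.03 in the c-myb h/h arrays. The 3 cell types did not overlap, and the row climbed in 2 steps, the upper one the larger. It rose from B220+CD23+ to B220+CD23-IgM+ cells by 1.75 log2 (SE 0.16, limma adjusted p = 5.88e-05) in control and 1.73 log2 (SE 0.14, limma adjusted p = 1.23e-05) in the c-myb h/h mice. Both calls held under all 30 alternatives run for them. Here and below, alternatives that changed only the choice of members left the fit of a row unchanged and could not lose its call.

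Row 20861, also among the 10 largest steps into IgM+CD138+ cells, showed the same order with a wider upper step. It read 4.42, 4.23 and 3.94 log2 in control and 4.24, 4.67 and 4.06 in the c-myb h/h B220+CD23+ arrays, and 5.82 and 5.33 against 6.39, 5.99 and 6.29 in B220+CD23-IgM+ arrays. The IgM+CD138+ arrays read 9.76, 9.78 and 9.88 in control and between 9.97 and 10.01 in the 3 of c-myb h/h mice. It rose between the B cell populations by 1.39 log2 (SE 0.19, limma adjusted p = 0.00166) in control and by 1.90 log2 (SE 0.17, limma adjusted p = 2.86e-05) in c-myb h/h mice, again under all 30 alternatives. The difference between these steps, 0.52 log2 (SE 0.25), did not pass (limma adjusted p = 0.9997).

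Row 30801 was bright in IgM+CD138+ cells, at 11.25, 11.08 and 10.85 log2 in control and 11.13, 10.94 and 10.81 in the c-myb h/h arrays. It read 6.23, 5.09 and 5.77 in control and 5.85, 6.11 and 5.72 in the c-myb h/h B220+CD23+ arrays, and 6.83 and 7.44 against 7.70, 7.68 and 7.07 in B220+CD23-IgM+ arrays. It rose between the B cell populations by 1.44 log2 (SE 0.28, limma adjusted p = 0.0166) and 1.59 log2 (SE 0.25, limma adjusted p = 0.00278), and the control call was lost under 5 of the 30 alternatives. Rows 5555, 12073 and 22968 completed the 6 with the largest mean step, at 1.26, 1.31 and 1.28 log2 in control and 1.60, 1.52 and 1.52 log2 in the c-myb h/h mice. In each of the 6 every B220+CD23-IgM+ array stood above every B220+CD23+ array. The c-myb h/h calls of all 6 held under the 30 alternatives, and those in control mice were lost under 3, 4 and 16 of them for rows 5555, 12073 and 22968.

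The 2 members that fell from B220+CD23+ to B220+CD23-IgM+ cells in control mice, rows 11512 and 17592, did so by 0.55 and 1.05 log2. Row 11512 read 5.73, 6.16 and 5.92 log2 in control B220+CD23+ and 5.37 and 5.40 in control B220+CD23-IgM+ arrays (SE 0.13, limma adjusted p = 0.0493). Row 17592 read 7.68, 7.91 and 7.69 and then 6.73 and 6.70 (SE 0.20, limma adjusted p = 0.0166). Neither passed in c-myb h/h mice, where row 11512 read 5.40, 5.56 and 5.37 and then 5.59, 5.63 and 5.33, with overlap.

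On a linear scale the members of B220+CD23-IgM+ cells stood close to the B220+CD23+ level. Taking B220+CD23+ as 0% and IgM+CD138+ as 100%, the median member stood at 1.96% in control mice (quartiles -0.16 and 5.19) and at 2.85% in c-myb h/h mice (quartiles 0.49 and 5.98). The 179 immunoglobulin-stretch rows of the same threshold, set beside them, stood at 1.23% and 0.55%. Their median difference between the B cell populations was 0.18 log2 in control mice, with 122 of 179 above 0, and 0.13 log2 in c-myb h/h mice, with 109 above 0. The part of IgM+CD138+ cells among the sorted B220+CD23-IgM+ cells in this step was not tested. Of the 66 members at least 8-fold higher in IgM+CD138+ cells, 6 (9.09%) passed the step between B cell populations in control and 12 (18.2%) in the c-myb h/h mice, close to the 8.64% and 15.2% of all tested members.

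Few members passed the test between genotypes in any cell type. In IgM+CD138+ cells 1 member passed limma's test at a Benjamini-Hochberg adjusted p under 0.05 (0.412% of the 243 tested, background 0.191%), while 1 did so in B220+CD23+ (background 0.134%) and 0 in B220+CD23-IgM+ cells (background 0.0413%). At an unadjusted p under 0.05 there were 31 members in IgM+CD138+ cells (12.8%, beside 10.6% of all tested rows), 22 in B220+CD23+ cells (9.05%, beside 6.45%) and, for B220+CD23-IgM+ cells, 45 (18.5%, beside 8.66%). Of these 18, 15 and 35 were higher in c-myb h/h mice. Medians over the 244 were 0.06, 0.03 and 0.15 log2 in that order, beside 0.003, -0.006 and -0.0008 over all tested rows. Single arrays moved the small medians: that in IgM+CD138+ cells was -0.005 without control replicate 3, 0.004 without c-myb h/h replicate 1 and 0.088 without control replicate 1. That in B220+CD23+ cells was 0.011 without control replicate 2, 0.067 without control replicate 1 and 0.065 without c-myb h/h replicate 3.

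The shift in B220+CD23-IgM+ cells was small and spread over many members. Of the 244, 175 were higher in c-myb h/h mice there, against 144 in IgM+CD138+ and 142 in B220+CD23+ cells, where tested rows as a whole were higher in 49.8%, 50.8% and 48.3% in that order. The quartiles were -0.03 and 0.30 log2. The mean over members was 6.24 ± 0.02 (SD, n = 2) in control and 6.37 ± 0.09 (SD, n = 3) in c-myb h/h B220+CD23-IgM+ cells, and all 3 c-myb h/h arrays stood above both control arrays. The immunoglobulin-stretch rows went the other way, their means being 7.69 and 7.82 in the control and 7.52 to 7.62 in the c-myb h/h arrays. With 2 control arrays the order of so few means is no test, and none was made on the mean over members.

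**Figure D3:**
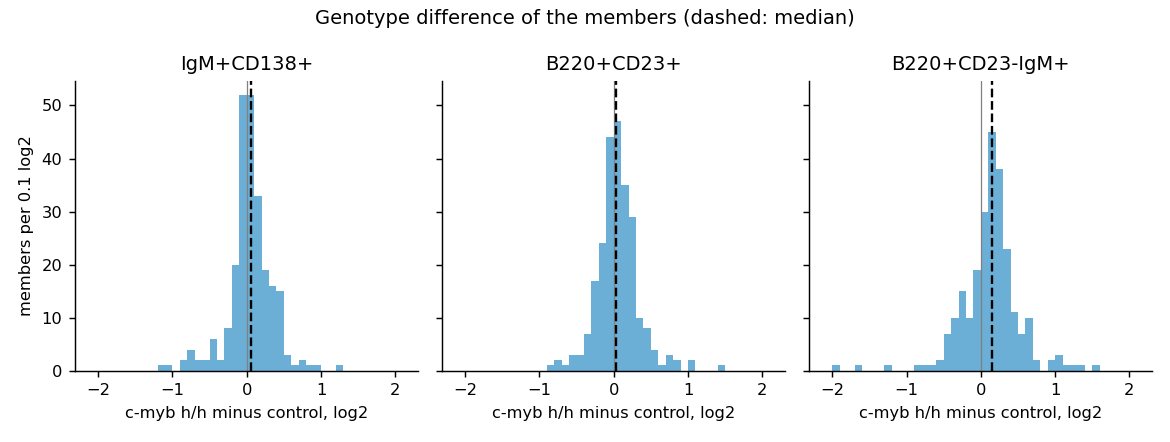
Histograms of the difference between c-myb h/h and control in log2 for the members in each cell type, with 0 and the members' median marked. The members' medians lie at 0.06 in IgM+CD138+, 0.03 in B220+CD23+ and 0.15 in B220+CD23-IgM+ cells. Those of all tested rows, not drawn, lie within 0.01 of 0.

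Row 29086 was the member that rose with genotype in IgM+CD138+ cells. It read 7.29, 6.35 and 6.78 log2 in control and 8.21, 7.94 and 7.93 in the c-myb h/h IgM+CD138+ arrays, without overlap. In B220+CD23+ cells it read 3.85, 4.06 and 4.09 against 3.81, 4.12 and 3.78, and in B220+CD23-IgM+ cells 4.26 and 3.77 against 4.23, 4.06 and 3.64, with the genotypes mixed. The difference in IgM+CD138+ cells was 1.22 log2 (SE 0.21, limma adjusted p = 0.0282), and the call was lost in 8 of 28 alternatives. Among these were the fit of only the IgM+CD138+ arrays (limma adjusted p = 0.412) and the fits without any 1 of the 6 IgM+CD138+ arrays other than control replicate 1 (0.0568 to 0.0731). The difference from the genotype effect in B220+CD23+ cells was 1.32 log2 (SE 0.30) and did not pass (limma adjusted p = 0.349).

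Row 17395 was the member that rose with genotype in B220+CD23+ cells. It read 9.47, 9.73 and 9.72 log2 in control and 10.72, 10.82 and 10.57 in the c-myb h/h B220+CD23+ arrays, and 10.15 and 10.81 against 11.04, 11.40 and 11.14 in B220+CD23-IgM+ arrays. Neither cell type showed overlap between genotypes. In IgM+CD138+ cells, at 12.29, 12.53 and 12.83 against 12.51, 12.64 and 12.67, the genotypes did overlap. The difference in B220+CD23+ cells was 1.06 log2 (SE 0.17, limma adjusted p = 0.0226), and it was lost without any 1 of the 6 B220+CD23+ arrays (limma adjusted p from 0.0532 to 0.113). The difference in B220+CD23-IgM+ cells was 0.71 log2 (SE 0.19, limma adjusted p = 0.193).

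In B220+CD23-IgM+ cells the member nearest to the threshold read lower in c-myb h/h mice. Row 23706 read 6.39 and 7.90 log2 in control and 5.65, 5.01 and 4.80 in the c-myb h/h arrays, a difference of -1.99 log2 (SE 0.33, limma adjusted p = 0.0513), and the control arrays themselves lay far apart. It read 6.36, 6.55 and 5.91 against 5.51, 5.46 and 5.47 in B220+CD23+ cells, also without overlap. Row 34724 read 5.47 and 6.16 in control and 7.22, 6.68 and 7.29 in the c-myb h/h B220+CD23-IgM+ arrays, a difference of 1.25 log2 (SE 0.23, limma adjusted p = 0.0944). It read 5.33, 5.35 and 4.88 against 5.99, 5.91 and 5.98 in B220+CD23+ cells, where the genotypes did not overlap either. Rows 23706 and 34724 were picked out after their values were seen.

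No member differed in its genotype effect between cell types after adjustment. Limma gave 0 members when IgM+CD138+ was set against B220+CD23+ (27 unadjusted, lowest adjusted p = 0.349), 0 against B220+CD23-IgM+ (28, lowest 0.497) and 0 when the B cell populations were compared (14, lowest 0.9997). The background was 0% of 19350 rows in each, with 1303, 1375 and 750 at an unadjusted p under 0.05. The larger shift of the members in B220+CD23-IgM+ cells is therefore a description of their medians and was not shown to differ from that in the other cell types.

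Most members were steady between IgM+CD138+ arrays of a genotype. The standard deviation within groups had a median of 0.200 log2 over members and 0.217 over all valued rows. In 24 members (9.84%) it exceeded 0.5 log2, beside 5.64% of valued rows. The most variable, row 34993, read 6.80, 3.81 and 8.35 log2 in control and 6.09, 5.86 and 7.35 in the c-myb h/h IgM+CD138+ arrays, a standard deviation of 1.73. Row 24593 read 7.54, 3.95 and 6.85 against 7.16, 6.19 and 5.98 (1.42). For both of these rows control replicate 2 was the lowest of the 6 arrays, whereas for row 33151, at 5.48, 5.84 and 8.57 against 7.30, 7.35 and 7.998, control replicate 3 was the highest.

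Along the list the members were scattered. They ran from row 5555 to row 39802, with a median gap of 94 rows and a largest gap of 780. Of 349 windows of 100 listed rows, 182 held no member, 112 held 1, 41 held 2, 9 held 3, 4 held 4 and 1, rows 27801 to 27900, held 7. By the chromosomes of the neighbouring displaced names, which agreed on 1 chromosome in over 0.8 of the names around 239 members, members were found on 20 of the 21 chromosomes counted. Their share of valued rows ran from 0.417% on chromosome 4 (9 members) to 1.48% on chromosome 15 (17 members), and was 0 of 215 rows on Y. Only 0, 2 and 2 members lay within 100 rows of the 3 left-out stretches.

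**Figure D4:**
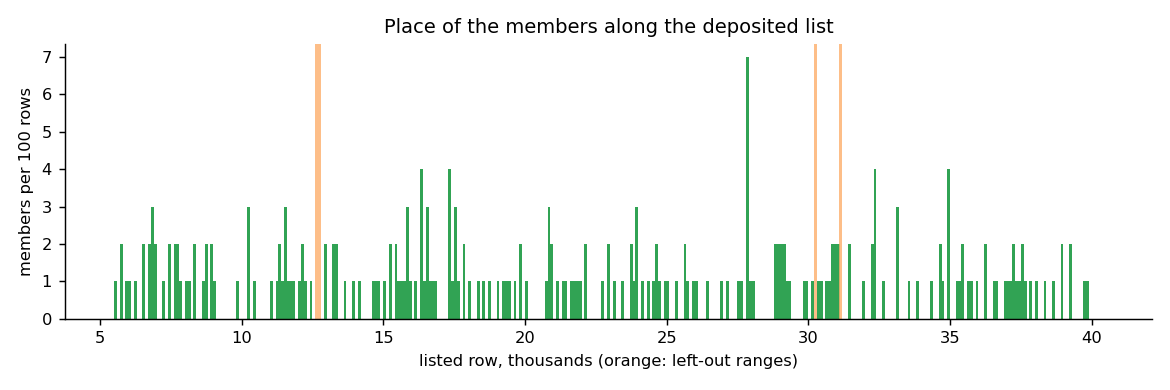
Number of members in each window of 100 listed rows (vertical axis) by position along the list (horizontal axis). Shaded bands are the left-out stretches. Members are spread over the whole list, and the fullest window, rows 27801 to 27900, holds 7.

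A few members stood side by side. Members no more than 5 rows apart formed 17 runs with 39 members, of which 15 were pairs and 1 was a trio at rows 33147, 33151 and 33152, and 13 pairs of members were direct neighbours. The longest run held 6 members, rows 27883, 27884, 27885, 27887, 27888 and 27889. The row between them, 27886, and the row after, 27890, stood 1.03 and 1.33 log2 higher in IgM+CD138+ cells and so fell short of the threshold, whereas the row before, 27882, stood at 0.30.

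The 6 rows of this run varied together across the IgM+CD138+ arrays. Their mean was 8.23, 8.26 and 7.13 log2 in control and 7.42, 6.93 and 7.15 in the c-myb h/h IgM+CD138+ arrays. It was 4.61, 4.47 and 4.62 in control and 5.28, 5.003 and 4.64 in the c-myb h/h B220+CD23+ arrays, and 4.63 and 4.60 against 5.46, 5.14 and 4.57 in B220+CD23-IgM+ arrays. In IgM+CD138+ cells control replicates 1 and 2 were high and control replicate 3 lay among the c-myb h/h arrays. Pairwise Pearson correlations over these 6 arrays ran from 0.749 to 0.996 for the 15 pairs of rows, which share their arrays. The differences between genotypes in IgM+CD138+ cells ran from -1.01 to -0.34 log2, and none passed (limma adjusted p from 0.268 to 0.797).

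**Figure D5:**
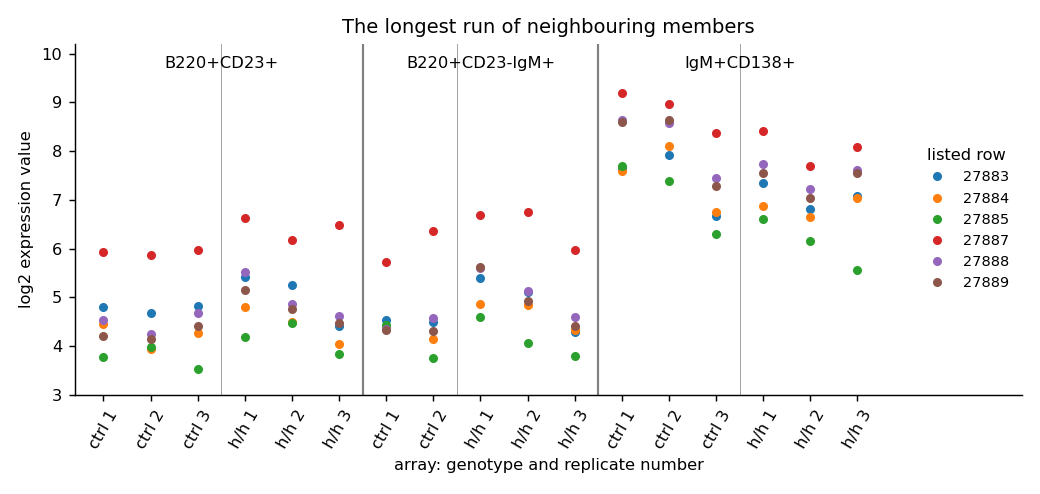
Log2 level (vertical axis) of the 6 members of the longest run, rows 27883 to 27889 without 27886, in each of the 17 arrays grouped by cell type and genotype. The run reads higher in all 6 IgM+CD138+ arrays than in any other array, with control replicates 1 and 2 at the top (means of 8.23 and 8.26).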

How the data were processed

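Total RNA of sorted spleen cells was hybridised to 1 array per sample. Per the submitters' processing notes the authors summarised the probes with RMA, of unstated version, and the deposited values behave as log2 levels. Joint normalization of the arrays and the origin of the displacement are not given in the sources read. Of 41801 listed rows 8474 were blank and 33327 held values. The platform annotation gives 23365 of these a single gene symbol, 1774 several and 8188 none. The members, the gene lists and the rules were chosen with earlier results of these data known.

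Rows that exceeded the median of their array in at least 2 arrays (19350) were tested with limma 3.58.1 under R 4.3.3 (2-sided, with lmFit followed by eBayes and neither trend nor robust moderation), with 6 group means over 17 arrays and 11 residual degrees of freedom. Within each of 8 comparisons p-values were Benjamini-Hochberg adjusted and called under 0.05. Precision is limited by the number of arrays, and where separate mice are not certain the p-values measure only the spread between these arrays. Single rows are named by number: the 10 largest differences that chose members, members called by genotype, the 6 with the largest mean step among members called between the B cell populations in both genotypes, the 3 rows on each side of the threshold and the longest run. Other rows are named outside these rules, as cases of overlap, a fall between the B cell populations, wide spread, a shorter run, a near call or the filter. On simulated data the step between B cell populations in control mice recovered 76% of 100 rows changed 2-fold and 99% of 100 changed 4-fold. There were 7 false calls among the unchanged rows of the 19350. Genotype in B220+CD23-IgM+ cells gave 80% and 99% with 7, and genotype in B220+CD23+ cells 89% and 98% with 15. The differences of genotype effects recovered 55% to 61% of the 2-fold changes and 92% to 97% of the 4-fold ones. Alternatives covered the filter, normalization, arrays in the fit, variance model, array weights, blocks for replicate number or mouse, the threshold of the members, the widths along the list and leaving out each array. Deviations of arrays with the same number from their group means correlated between the B cell populations, with r of 0.409 and 0.297 for control and 0.201, 0.065 and 0.038 for c-myb h/h mice. Within a genotype, pairs of an IgM+CD138+ array with a B cell array ran from 0.025 to 0.137. Between genotypes, where equal numbers mark different mice, r was 0.345, 0.070 and 0.086 for B220+CD23+ replicates 1, 2 and 3. It was 0.236, 0.032 and 0.198 for IgM+CD138+ replicates 1, 2 and 3, and 0.109 and 0.231 for B220+CD23-IgM+ replicates 1 and 2. Not every pair exceeded 0.1 and the labels state no pairing, so the unpaired fit was kept, and fits with the number or the mouse as a block are given beside it; a shared mouse and a batch by number cannot be told apart. Python 3.11.15 and matplotlib 3.10.9 drew the figures.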

Additional observations from a re-analysis of the deposited data

How the results depend on the processing

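Each called row that was followed through the alternatives kept its direction, but the members called by genotype did not all go one way. For IgM+CD138+ cells the 1 called in the main fit was higher in c-myb h/h mice. When replicate 3 from these mice was dropped for that cell type, 1 member was called and it was lower (31 of 19235 rows called in all). For B220+CD23-IgM+ cells the main fit called 0 (8 of 19350 rows in all). Dropping replicate 3 from these mice gave 3, all higher, while the calls over all rows rose to 52 of 19293. Without control replicate 1 of that cell type the members called were all lower. That fit kept a lone control array, so its count is not given. The filter by group gave 1 there, and it was lower. With members defined at 3 log2 (66 members) the called members were 6 and 12 for the step between B cell populations in control and c-myb h/h mice and 0 for genotype in B220+CD23+ cells, by construction from fewer members, and the count was also 0 with members chosen by medians. With only the compared groups in the fit the counts were 10 for the control step, 0 for genotype in IgM+CD138+ cells (0 of all rows too, by limma, with 23 members at an unadjusted p under 0.05) and 2 in B220+CD23+ cells (38 of all rows). With array weights genotype gave 6 in B220+CD23+ cells (5 higher, 1 lower; 130 of all rows, 0.672%) and 2 for B220+CD23-IgM+ cells (22 of all rows), while it gave 2 in each of these with trend and robust moderation (44 and 18 of all rows). In B220+CD23+ cells the count was 2 with quantile normalization, with arrays centred and scaled, with the filter by group, or with the filter on the 11 arrays of the B cell populations, and in B220+CD23-IgM+ cells it was 1 under either filter (31 to 35 and 9 to 10 of all rows). That filter on 11 arrays was added after seeing the data. The replicate block on the number gave 2, 3 and 0 members (70, 44 and 25 of all rows) by genotype in IgM+CD138+, B220+CD23+ and B220+CD23-IgM+ cells. It gave 22 and 41 (300 and 694 of all rows) for the step in control and c-myb h/h mice. Pairing by mouse as a fixed replicate block, chosen after seeing the data, gave 4 in control and 34 in the c-myb h/h mice (60 and 429 of all rows). The random mouse block gave 1 by genotype in B220+CD23-IgM+ cells (9 of all rows). Leaving out each array in turn gave 0 to 2, 0 to 4 and 0 to 3 members by genotype in IgM+CD138+, B220+CD23+ and B220+CD23-IgM+ cells, 7 to 26 and 18 to 40 for the step in control and c-myb h/h mice, and 0 to 1, 0 to 1 and 0 to 0 for the differences of genotype effects. Calls over all rows moved as well. Leaving aside fits with a lone control B220+CD23-IgM+ array, they ran from 25 to 82, 4 to 50 and 2 to 52 by genotype in the same order. For the step they ran from 107 to 348 in control and from 274 to 693 in c-myb h/h mice. The lists along the displaced list gave 85.7% for antibody-secreting genes at 40 rows, and 29.9% and 70.1% for secretory genes at 10 and 40 rows, widths chosen after seeing the data. The number of members was 236 with quantile normalization, 265 with arrays centred and scaled, 247 by medians and 238 to 251 without single arrays. The medians over members kept their sign except that for genotype in IgM+CD138+ cells, which ran from -0.005 to 0.088; that in B220+CD23+ cells ran from 0.011 to 0.067 and that in B220+CD23-IgM+ cells from 0.125 to 0.196, and those for the step from 0.147 to 0.206 in control and from 0.197 to 0.287 in c-myb h/h mice. A lone control B220+CD23-IgM+ array was taken to vary as the remaining groups do. Causes of moved counts, other than the one stated, were not tested.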
